A study of Mus musculus with 4 samples.

Results

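The Notch receptors Notch1, Notch2, Notch3 and Notch4 and the ligands Dll1, Dll3, Dll4, Dlk1, Jag1 and Jag2 were examined in 4 ATAC-seq libraries from mouse small cell lung cancer lines, 2 of the SMC type and 2 of the non-SMC type. ATAC-seq maps open chromatin, because a transposase cuts and tags DNA where nucleosomes and other proteins leave it accessible. The 10 genes were chosen as a family by name. Their peaks are those of the 4 deposited peak lists that lie in the gene body or within 50 kb on either side (GENCODE M21, mm10). They numbered 124 in SMC 1, 197 in SMC 2, 150 in non-SMC 1 and 149 in non-SMC 2, and merged into 422 of the 357570 regions of the genome. All lines came from lung tumors of RP mice, whose floxed Rb1 and Trp53 alleles are deleted by adenoviral Cre given through the trachea, on a mixed C57Bl/6, Balb-c and S129 background. SMC lines are NCAM high and CD44 low or negative and grow as floating spheres, and non-SMC lines are NCAM low and CD44 high and grow attached. All were untreated, and each library is 1 line, so the spread within a type is that between lines. The mice received Cre at 6 to 8 weeks of age, and their age when the tumors were taken is not given in the sources used here.

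Notch signaling passes between neighboring cells. A Delta-like or Jagged ligand on one cell binds a Notch receptor on another, ADAM proteases and then gamma-secretase cut the receptor, and the freed intracellular part joins RBPJ and a Mastermind coactivator in the nucleus to switch on targets such as Hes and Hey genes. Dll1, Dll4, Jag1 and Jag2 activate the receptors, Dll3 acts mainly inside the cell that makes it as an inhibitor, and Dlk1 lacks the receptor-binding DSL domain of the others. In the lung, pulmonary neuroendocrine cells express Dll3, and Notch activity in their neighbors restrains the neuroendocrine fate. Open chromatin at a gene is not its expression, and expression was not analysed here.

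A region is called SMC-only where SMC 1 and SMC 2 had a peak and no non-SMC line did. The reverse pattern is called non-SMC-only. Height is given as the pileup, the number of overlapping fragments at the summit recovered from the deposited values, and as the depth-scaled pileup, which is the pileup divided by the genome background of its library. Percentile is the rank of the fold enrichment of a peak in its own list. The lists held 91057 to 153954 peaks, and the depth implied by the background was 8.36 M read tags in SMC 1, 29.4 M in SMC 2, 23.5 M in non-SMC 1 and 10.4 M in non-SMC 2. The lowest depth-scaled pileup that could be called was 6.58 in SMC 1, 3.25 in SMC 2, 3.37 in non-SMC 1 and 4.70 in non-SMC 2, so a line without a listed peak may still hold a lower signal. Most listed peaks were weak, and a -log10 q of at least 5 was reached by 14.3% of those of SMC 1, 17.1% of SMC 2, 38.0% of non-SMC 1 and 19.5% of non-SMC 2. No test was made between the types, since an exact two-sided permutation test of 2 lines against 2 cannot give a p below 0.333.

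The SMC-only regions with the highest mean percentile over the family, at most 2 a gene and none within 3 kb of the start of another gene, lay at Dll1, Notch1, Jag2 and Dll3. Their sequences, 60 bases on each side of the summit in the mm10 assembly GRCm38 and read 5′ to 3′ on the strand of the gene, are shown because the description of each locus below returns to them. Capitals mark ACAATG (SOX) at Dll1, CAGCTG (E-box) and the reverse complement of ACAAAG (SOX) at Dll3, and CAGCTG at Jag2. The Notch1 stretch held none of the motifs searched, and the Dll3 stretch was ended before the annotated 5′ UTR.
Dll1, upstream, chr17:15382379-15382499, minus strand: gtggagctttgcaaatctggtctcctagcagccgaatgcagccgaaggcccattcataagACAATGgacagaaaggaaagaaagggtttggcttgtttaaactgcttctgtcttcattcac
Dll3, up to the gene start, chr7:28302239-28302327, minus strand: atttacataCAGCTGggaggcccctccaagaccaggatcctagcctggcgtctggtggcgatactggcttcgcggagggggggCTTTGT
Jag2, intron, chr12:112924336-112924456, minus strand: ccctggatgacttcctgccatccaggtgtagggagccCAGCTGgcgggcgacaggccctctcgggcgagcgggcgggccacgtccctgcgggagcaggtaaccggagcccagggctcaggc
Notch1, coding exon, chr2:26460002-26460122, minus strand: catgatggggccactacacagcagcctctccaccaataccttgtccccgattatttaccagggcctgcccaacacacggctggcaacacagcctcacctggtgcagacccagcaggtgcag

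The non-SMC-only regions with the highest mean percentile were 2 at Jag1 and 2 at Notch2. The stretch before the annotated start of Notch1 is added because this was the single promoter of the family with peaks in both non-SMC lines and none in an SMC line. Capitals mark TGACTCA (AP-1) and the reverse complement of GTGGGAA (RBPJ) in the farther Jag1 region, and TGACTCA in the nearer one. They mark TGTGGT (RUNX) and TGACTCA in the Notch2 intron. In the Notch2 stretch labeled coding exon they mark the reverse complements of ACAAAG (SOX) and TGTGGT (RUNX), and before Notch1 that of GTGGGAA. The label coding exon is given to a whole region that overlaps coding sequence by any base. The Notch2 stretch printed under it is not coding throughout. Of the 21938 protein-coding genes, 3.04% held GTGGGAA on either strand in the 150 bases before their start.
Jag1, farther downstream region, chr2:137049509-137049629, minus strand: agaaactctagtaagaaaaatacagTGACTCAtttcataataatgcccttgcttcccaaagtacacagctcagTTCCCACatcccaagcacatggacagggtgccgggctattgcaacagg
Jag1, nearer downstream region, chr2:137067807-137067927, minus strand: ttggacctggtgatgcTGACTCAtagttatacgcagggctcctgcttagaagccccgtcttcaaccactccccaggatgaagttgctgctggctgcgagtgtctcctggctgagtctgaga
Notch2, intron, chr3:98057169-98057289, plus strand: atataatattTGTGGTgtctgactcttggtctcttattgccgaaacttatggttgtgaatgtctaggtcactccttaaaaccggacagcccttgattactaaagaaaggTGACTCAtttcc
Notch2, coding exon, chr3:98106874-98106994, plus strand: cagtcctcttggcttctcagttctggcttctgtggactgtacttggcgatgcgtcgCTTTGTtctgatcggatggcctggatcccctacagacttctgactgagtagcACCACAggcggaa
Notch1, before the gene start, chr2:26516664-26516813, minus strand: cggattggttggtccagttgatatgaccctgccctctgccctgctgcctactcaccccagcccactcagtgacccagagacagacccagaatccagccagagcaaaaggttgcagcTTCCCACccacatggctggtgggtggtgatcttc

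Across the family, non-SMC-only regions outnumbered SMC-only ones by 37 to 19, both close to their share in the genome. SMC-only regions made up 4.50% of the 422, beside 4.37% of all regions and 4.27% of those within 50 kb of any protein-coding gene. Non-SMC-only regions made up 8.77%, beside 7.33% and 7.27%. Regions with a peak in all 4 lines numbered 22, or 5.21%, beside 3.81% and 4.53%, and 13 of these 22 lay within 3 kb of the start of another gene. Peaks of a single line formed 295 of the 422 regions. Between SMC 1 and non-SMC 1 alone there were 88 regions of the SMC line and 116 of the non-SMC line, but between SMC 2 and non-SMC 2 there were 148 and 102, so the direction was not shared by the line pairs. More non-SMC-only than SMC-only regions were found at 6 genes, Notch1, Notch2, Notch4, Dlk1, Jag1 and Jag2, and more SMC-only regions at 3, Notch3, Dll1 and Dll4. Dll3 had 2 of each. Over all protein-coding loci the means were 1.99 non-SMC-only and 1.12 SMC-only regions a locus, so an excess of the former was not particular to the family. The share of all loci with either excess was not counted.

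Among strong peaks the balance lay further to the non-SMC side. With peaks of -log10 q of at least 5 alone, 79 regions were left at the family, of which 21 were non-SMC-only (26.6%, beside 20.1% of all such regions) and 1 was SMC-only (1.27%, beside 6.12%). That region was the upstream Dll1 region shown above. The 21 non-SMC-only regions lay at 9 of the 10 genes, with 5 at Notch2, 4 at Notch1, 3 at Jag1, 2 each at Dll1, Dlk1 and Jag2, and 1 each at Notch3, Notch4 and Dll3. Dll4 had none. The number of peaks that pass this limit depends on depth, and the shallowest library was SMC 1. Every library was also thinned to the same depth, at 50% of that of SMC 1, keeping peaks with p of at most 0.01 and no limit on q. The medians over 20 draws were 27.5 non-SMC-only and 8 SMC-only regions, beside 37 and 19 of all peaks without thinning. The share over all regions of the genome thinned in this way was not computed.

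In total the family held 13.2 ± 0.581 of every 10000 peaks in SMC lines and 12.3 ± 0.971 in non-SMC lines (SD, n = 2 each), a difference of 0.944 that was no larger than the SD of the non-SMC lines. With peaks of -log10 q of at least 5 alone the difference turned to -4.36 per 10000. By gene, the share of the peak list did not overlap between the types at 4 of the 10. It was higher in both SMC lines at Dll1, Dll4 and Jag2, as at 19.9% of all protein-coding loci, and higher in both non-SMC lines at Jag1, as at 19% of all loci.

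**Figure D1:**
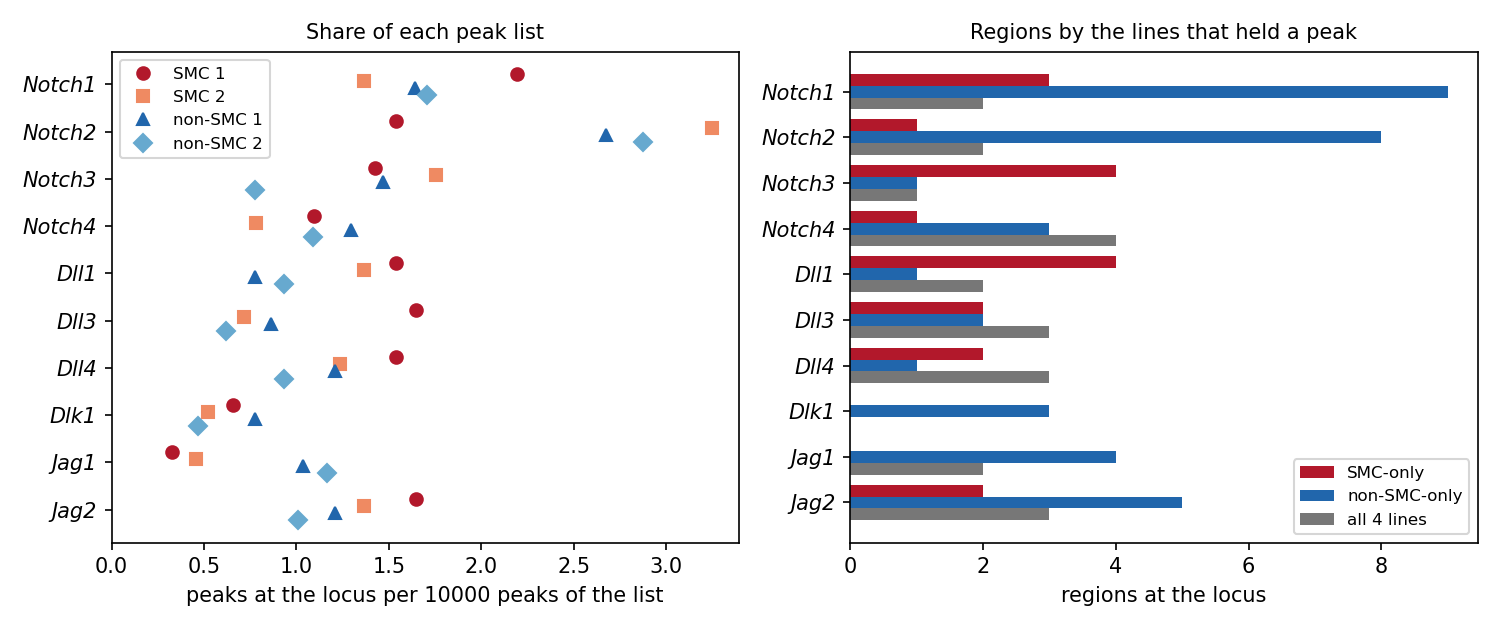
Left, peaks at each gene with 50 kb on either side per 10000 peaks of the list, 1 point per line. Right, the number of SMC-only, non-SMC-only and all-line regions of each gene. The Jag1 points of the non-SMC lines (1.04 and 1.17) sit apart from those of the SMC lines (0.329 and 0.455), and the longest bars are the 9 non-SMC-only regions of Notch1 and the 8 of Notch2.

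Notch1 and Notch2, the receptors most widely expressed, had the most non-SMC-only regions of the family. They also had its longest windows, 159 and 237 kb, and the most regions of any kind, 58 and 96. Notch1 had 58 regions from 20, 21, 19 and 22 peaks in SMC 1, SMC 2, non-SMC 1 and non-SMC 2, of which 9 were non-SMC-only and 3 SMC-only. Of all protein-coding loci, 2.12% had at least 9 non-SMC-only regions, a share not matched for window length. Without SMC 1 the counts were 15 SMC-only against 9 non-SMC-only, and without SMC 2 they were 16 against 9. Leaving out a line eases the rule for its own type, which raises the count of that type by construction. It also eases the rule for the other type, whose regions then must lack a peak in the remaining line alone. Over the family that second rise was smaller, from 37 non-SMC-only regions to 40 without SMC 1 and 46 without SMC 2. Such counts therefore cannot show which way the balance lies, here or at the genes below. The Notch1 region with the highest mean percentile, 92.4, lay 9269 bp upstream of the gene start (chr2:26525671-26526093) with pileups of 41 and 17 in non-SMC 1 and non-SMC 2. Their depth-scaled pileups of 27.6 and 26.6 were nearly equal. A region 15324 bp upstream (chr2:26531874-26532340) had pileups of 36 and 18, and one in an intron 8931 bp from the start (chr2:26507368-26508067) had 48 and 13. Each of these 3 regions had -log10 q above 5 in both non-SMC lines and no listed peak in the SMC lines. On the other side, an SMC-only region covered coding sequence near the 3′ end of Notch1 (chr2:26459574-26460579), with pileups of 10 and 19 and a mean percentile of 81.9.

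Notch2 spans 136835 bp, the longest gene of the family, and had 14, 50, 31 and 37 peaks in 96 regions. The 2 SMC lines thus differed more from each other than the types did, with 1.54 and 3.25 of every 10000 peaks. Of its 96 regions 8 were non-SMC-only and 1 SMC-only, where 7.33% of all regions of the genome were non-SMC-only. At least 8 non-SMC-only regions were found at 3.13% of all loci, again not matched for window length. Without SMC 1, Notch2 had 35 SMC-only and 9 non-SMC-only regions. The highest non-SMC-only region overlapped a coding exon and had its summit 93407 bp from the start (chr3:98106577-98107114). Its pileups were 70 and 47 and its percentiles 95.3 and 99.7. The gene start nearest to it was that of Adam30. A region in an intron 43702 bp from the start (chr3:98055969-98057532) had pileups of 86 and 41 and percentiles of 92.7 and 97.3. Other intronic regions lay 14119 bp from the start (chr3:98027147-98027740; pileups 52 and 19) and 11030 bp from it (chr3:98024276-98024841; 25 and 19). The SMC-only region of Notch2 was 22817 bp from the start, with a mean percentile of 57.2.

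Notch3 and Notch4 are receptors known best from vascular smooth muscle and endothelium. Notch3 had 13, 27, 17 and 10 peaks in 51 regions, 4 SMC-only and 1 non-SMC-only. The mean percentiles of the 4 SMC-only regions were between 30.2 and 40.3, and 3 of the 4 lay downstream of the gene. Its non-SMC-only region, 3170 bp upstream (chr17:32169905-32170049), had a mean percentile of 56.0. Without non-SMC 1 the counts were 4 SMC-only against 6 non-SMC-only. Without non-SMC 2 they were 5 against 13, again with only 1 non-SMC line required. Notch4 sits among 9 other gene starts, and 12 of its 30 regions were within 3 kb of one of them. Its 10, 12, 15 and 14 peaks gave 1 SMC-only and 3 non-SMC-only regions. The SMC-only one lay 56948 bp from the start beyond the gene (chr17:34621010-34621322), nearest to Egfl8, with pileups of 5 and 21 and a mean percentile of 73.5. The highest non-SMC-only one lay still farther beyond the gene, 71583 bp from its start (chr17:34635627-34635995) and nearest to Prrt1. It had pileups of 25 and 21, a mean percentile of 83.7 and -log10 q of 12.3 and 13.2. Without SMC 1, Notch4 had 7 SMC-only and 3 non-SMC-only regions.

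Jag1, a transmembrane activating ligand, had more peaks in both non-SMC lines. It had 3 and 7 peaks in the SMC lines and 12 and 15 in the non-SMC lines, which is 0.392 ± 0.0885 and 1.10 ± 0.0916 of every 10000 peaks (SD, n = 2 lines each). No other gene start lay in its window. Jag1 had 4 non-SMC-only regions and no SMC-only one, and non-SMC-only regions were the more frequent under all 15 alternatives tried for this count. Among these, leaving out a non-SMC line raised that count by construction, to 11 without non-SMC 1 and 8 without non-SMC 2. Without SMC 1, where the SMC-only rule is eased, there were 2 SMC-only and 4 non-SMC-only regions, and without SMC 2 there were 0 and 5. At least 4 non-SMC-only regions were found at 19.1% of all protein-coding loci. The region with the highest mean percentile of the whole family, 99.3, lay 67075 bp from the Jag1 start, downstream of the gene (chr2:137049294-137050072). Its pileups were 61 in non-SMC 1 and 28 in non-SMC 2, or 41.1 and 43.8 times the genome background, and -log10 q was 57.0 and 25.8. The next downstream region (chr2:137067454-137068306), 48777 bp from the start, had pileups of 77 and 25 and percentiles of 96.6 and 94.3. Neither region had a listed peak in SMC 1 or SMC 2. By contrast, the region at the Jag1 start (chr2:137116429-137117694) was present in all 4 lines, with depth-scaled pileups of 15.3, 20.2, 23.6 and 34.4.

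Jag2, the other Jagged ligand, had 15 and 21 peaks in the SMC lines and 14 and 13 in the non-SMC lines. Its highest one-sided regions were SMC-only, in an intron 5380 bp from the start (chr12:112924075-112924923; pileups 11 and 30) and 3592 bp upstream (chr12:112932780-112933545; 10 and 30). Both lay in raised local background, between 3.56 and 3.98 times that of the genome. It also had 5 non-SMC-only regions, all outside the gene and at most at a mean percentile of 72.0, and within the gene body alone it had more SMC-only regions. Its counts were 15 SMC-only against 5 non-SMC-only regions without SMC 1 and 10 against 6 without SMC 2.

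Dll1, a Delta-like activating ligand, had 14 and 21 peaks in the SMC lines and 9 and 12 in the non-SMC lines (1.45 ± 0.123 and 0.855 ± 0.110 of every 10000; SD, n = 2 each). Its 4 SMC-only regions all lay within 6 kb of the gene start, at 5567, 4380 and 197 bp upstream and 2088 bp into the gene. The farthest (chr17:15382002-15382554) had pileups of 11 in SMC 1 and 25 in SMC 2, percentiles of 86.9 and 89.5 and -log10 q of 5.64 and 11.0. The one non-SMC-only region was downstream, 10983 bp from the start (chr17:15365639-15366278), with pileups of 21 and 17 and percentiles of 76.9 and 94.8. Without non-SMC 1, Dll1 had 4 SMC-only and 7 non-SMC-only regions.

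Dll3, the inhibitory ligand of neuroendocrine cells, had a peak over its start in SMC 1 and SMC 2 that was absent from the non-SMC lists (chr7:28302039-28302467). The pileups were 7 and 17, the depth-scaled pileups 15.3 and 11.1 and the percentiles 73.0 and 81.3, with -log10 q of 2.44 in SMC 1 and 5.32 in SMC 2. Of its 28 regions 17 lay within 3 kb of the start of another gene, among them both of its non-SMC-only regions, at Eid2 and Supt5, and all 3 regions with peaks in every line. The Dll3 window thus held few regions away from its neighbors.

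Dll4, a ligand known from endothelium, and Dlk1 had few one-sided regions. Dll4 had 14, 19, 14 and 12 peaks, with 2 SMC-only regions of mean percentile 17.8 and 37.8 and 1 non-SMC-only region of 52.8. Leaving out either non-SMC line, which leaves only 1 such line required, gave more non-SMC-only regions. Dlk1 had 6, 8, 9 and 6 peaks, no SMC-only region and no region in all lines. Its 3 non-SMC-only regions were all upstream, 7632, 11259 and 27683 bp from the start. With only 1 SMC line required, there were 6 SMC-only against 4 non-SMC-only regions without SMC 1 and 5 against 4 without SMC 2. The middle upstream region (chr12:109441000-109442066) had pileups of 14 and 12 and the nearest one (chr12:109445029-109445581) of 21 and 8.

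**Figure D2:**
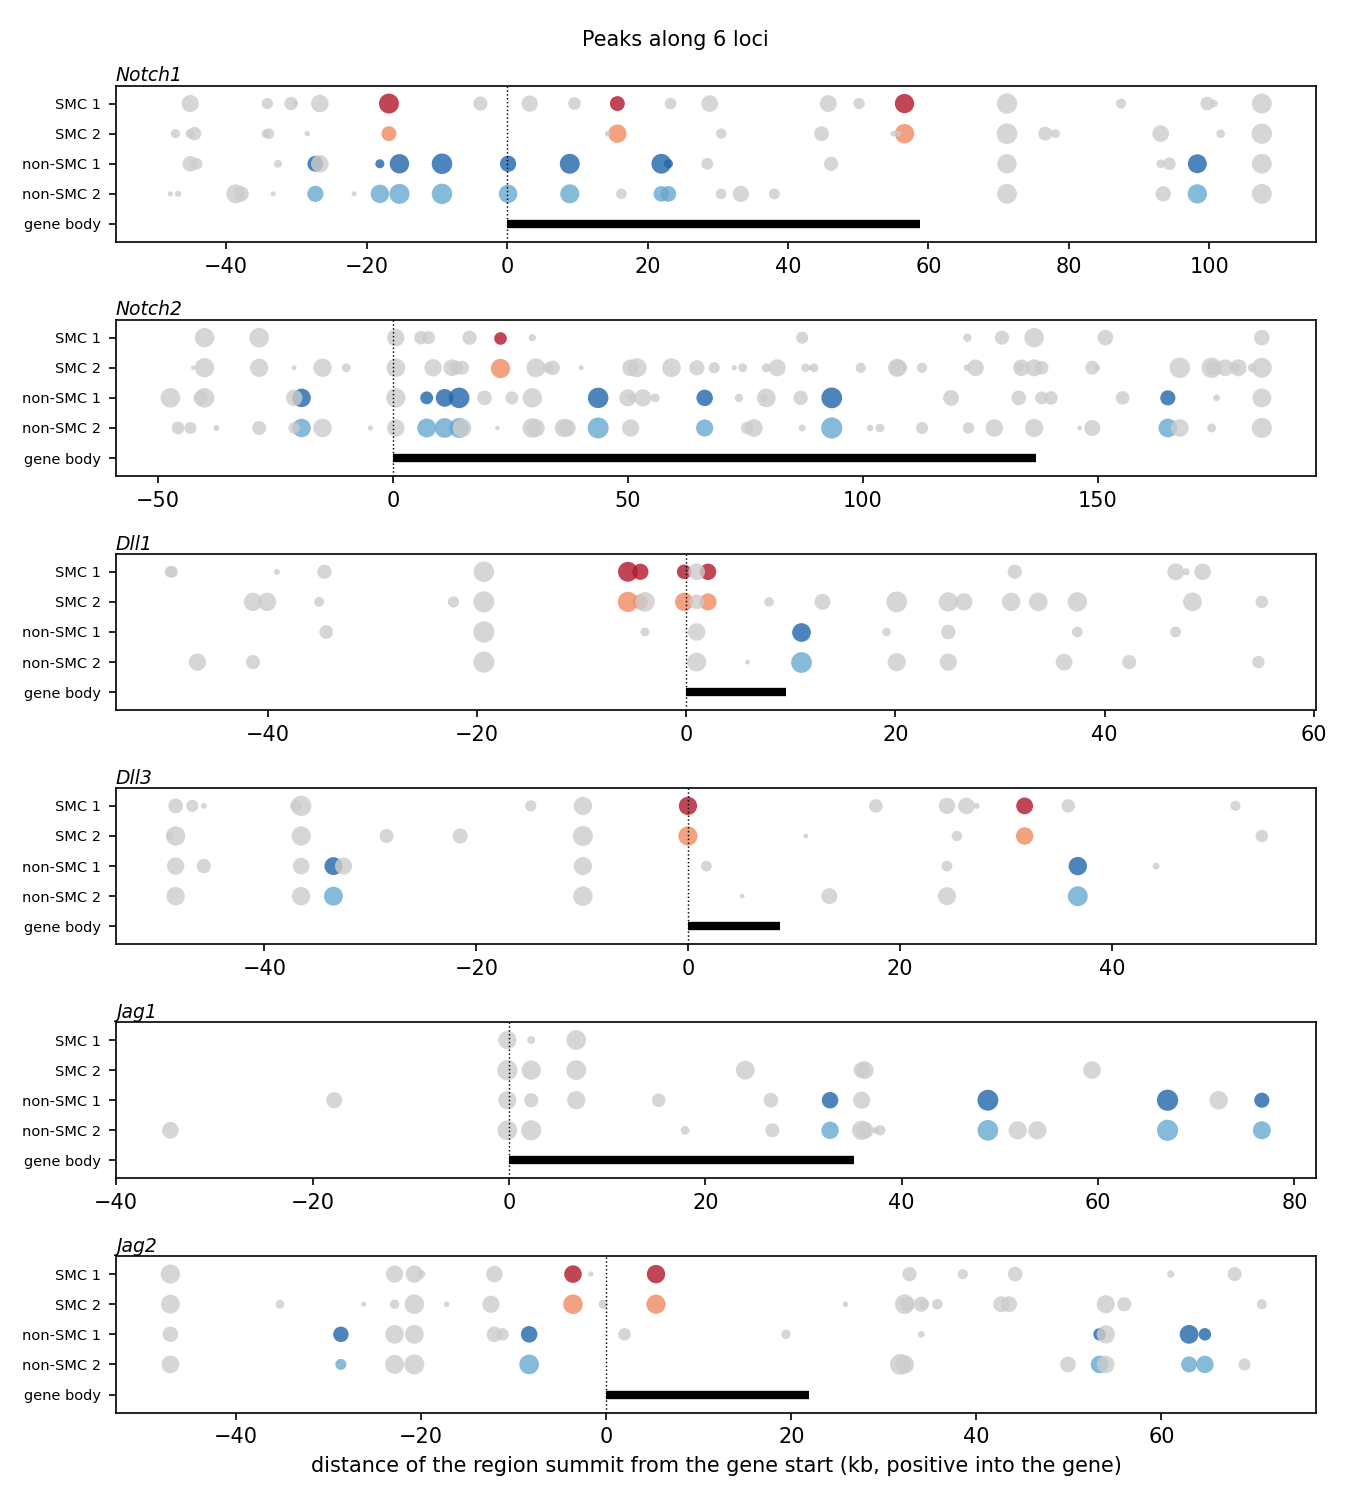
Peaks of each line along 6 loci, by distance of the region summit from the gene start in kb. Points grow with the percentile of the peak, red and orange mark SMC-only regions and blue shades non-SMC-only ones, gray the rest, and the black bar is the gene body. Red and orange points cluster around the start of Dll1, and the large blue points of Jag1 lie beyond its 3′ end, 48777 and 67075 bp from the start.

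At the promoters, taken as 3 kb on each side of the gene start, most genes of the family were not one-sided. Notch2, Dll1, Dll4 and Jag1 had a peak in all 4 lines, as did 48.7% of protein-coding promoters. Notch1 was non-SMC-only (2.45% of promoters were) and no gene was SMC-only (3.08%), while the other 5 had peaks in 1 to 3 lines. None of the 10 was without a peak, as 19.2% of promoters were. SMC 1 had a promoter peak at 7 genes, SMC 2 at 9, non-SMC 1 at 9 and non-SMC 2 at 6. With -log10 q of at least 5, none of the family was SMC-only (1.63% of all promoters) or non-SMC-only (5.3%).

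The Notch1 promoter depended on the annotation. Over the 5′ end in GENCODE, non-SMC 1 had a pileup of 10 and non-SMC 2 of 8, or 6.73 and 12.5 times the genome background, at percentiles of 57.0 and 74.4. RefSeq places the start 12841 bp downstream, at position 26503822 of chromosome 2. Within 3 kb of that position only the SMC lines had peaks, about 2.8 kb into the gene, with pileups of 6 and 16, and no line had a peak over it. At Jag1 the heights were 15.3 times the genome background in SMC 1, 20.2 in SMC 2, 23.6 in non-SMC 1 and 40.7 in non-SMC 2, and at Dll1 they were 17.5, 14.3, 12.1 and 18.8. The Dll1 values of the types overlapped. The Jag1 value of non-SMC 2 came from a peak 2272 bp into the gene, and by percentile the Jag1 promoters of the types overlapped, with 72.8 and 90.2 in SMC and 71.8 and 88.9 in non-SMC lines.

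The promoters that differed most in percentile between the types were those of Dll3, with means of 77.1 in SMC and 11.4 in non-SMC lines, and Notch1, with 0 and 65.7. The size of the difference was the same at the digits printed, 65.7 points, and Dll3 was taken by the unrounded value to find genes like it. The percentile is set to 0 where a line has no peak. The Dll3 value in non-SMC 1, 22.8, came from a peak of pileup 6 located 1707 bp into the gene, away from the start. The 3 genes whose promoter percentiles in the 4 lines lay closest to those of Dll3 were Astn2, Lrrtm1 and Chrdl1, at Euclidean distances of 3.24, 4.61 and 5.77 percentile points.

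**Figure D3:**
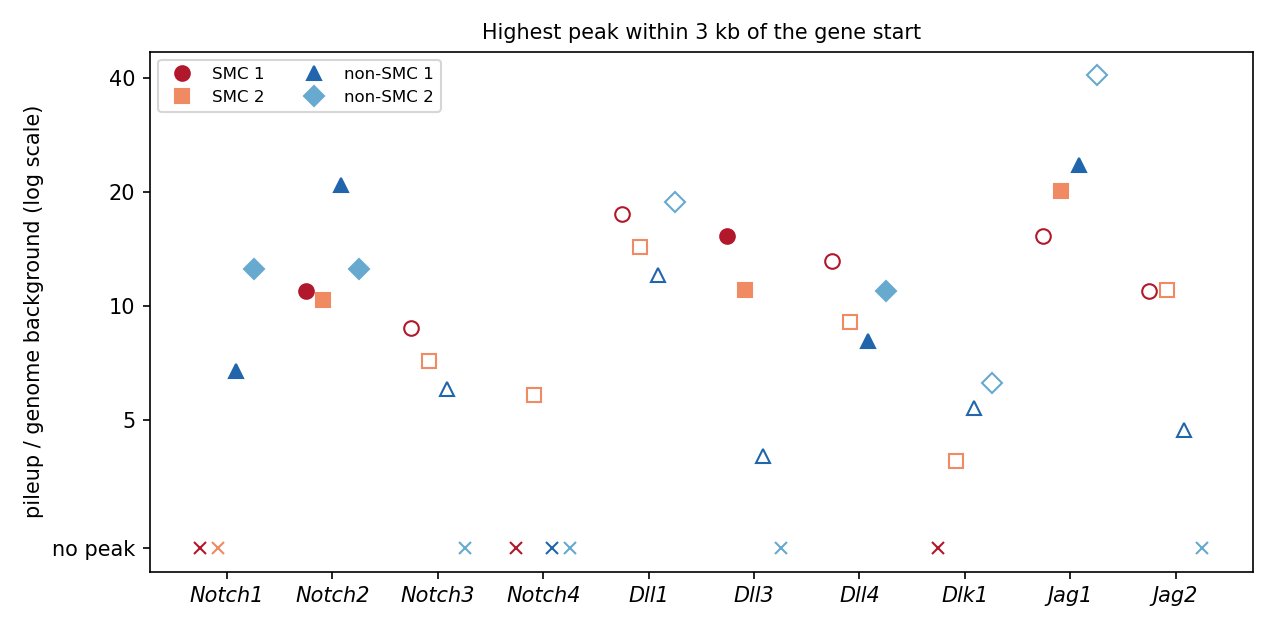
Depth-scaled pileup (log scale) of the most enriched peak within 3 kb of each gene start, 1 point per line. Filled points cover the start itself and crosses mark lines without a peak. At Dll3 the filled SMC points, 15.3 and 11.1, stand above the open non-SMC 1 point at 4.04, and at Notch1 both SMC lines have crosses.

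Both strands were searched for motifs in the 100 bp on each side of a summit, and a match is a description of the sequence. TGACTCA, the AP-1 motif, was present at 16 of the 37 non-SMC-only regions of the family (43.2%), spread over 9 of the 10 genes, and at 1 of the 19 SMC-only regions (5.26%), a Dll1 region. Over the genome the shares were 46.5% of 26224 non-SMC-only and 4.14% of 15618 SMC-only regions. Of the 4 non-SMC-only regions of Jag1 3 held it, both strong ones included, as did 4 of 9 at Notch1 and 2 of 8 at Notch2. TGTGGT (RUNX) was present at 11 non-SMC-only regions (29.7%; 29.6% over the genome) and 2 SMC-only regions (10.5%; 13.6%). GGAATG (TEAD) was at 7 non-SMC-only regions (18.9%; 19.3%) and 5 SMC-only ones (26.3%; 9.39%).

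CAGCTG, an E-box, was at 8 of 19 SMC-only regions (42.1%; 21.1% over the genome), at 6 genes, and at 9 of 37 non-SMC-only regions (24.3%; 14.0%). Both shares were above those over the genome, on either side of the comparison, and neither was tested. At Dll3 the E-box lies in the stretch up to the gene start printed above, and at Jag2 in the intronic region. ACAAAG or ACAATG (SOX) was at 8 SMC-only regions (42.1%; 40.5%) and 11 non-SMC-only ones (29.7%; 27.4%). GTGGGAA, the motif that RBPJ reads, was at none of the 19 SMC-only regions (4.10% over the genome) and at 3 non-SMC-only regions (8.11%; 5.34%), 1 each at Notch1, Jag1 and Jag2. In windows of 250 bp on each side it was at 4 of the 19 SMC-only regions, beside 10.5% over the genome, and at 10 of the 37 non-SMC-only regions, beside 11.8%. Overlapping motifs were counted for each.

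**Figure D4:**
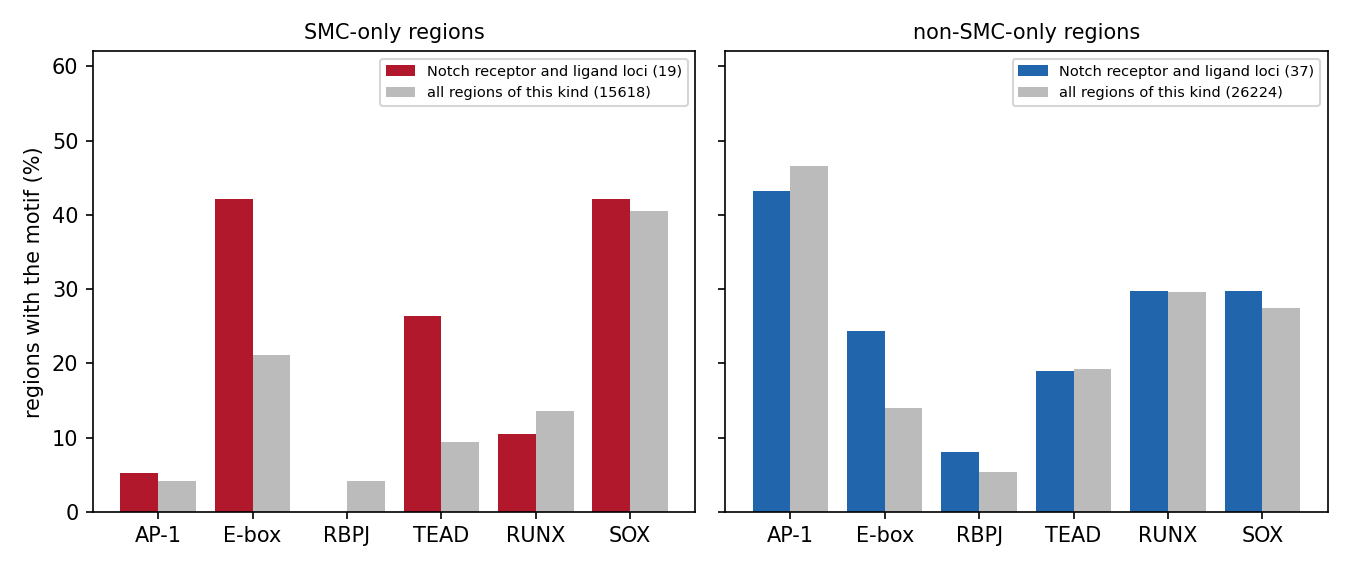
Share of SMC-only (left) and non-SMC-only (right) regions with each motif within 100 bp of the summit, for the family (colored, 19 and 37 regions) and for all regions of the kind (gray). AP-1 reaches 43.2% of the non-SMC-only regions of the family and 46.5% of all.

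Of 38 other genes of the pathway, 31 had a promoter peak in all 4 lines, as did 48.7% of protein-coding promoters. The single SMC-only promoter (3.08% of all were) was that of Rfng, a Fringe glycosyltransferase, at percentiles of 14.5 and 4.79. No promoter was non-SMC-only (2.45% of all were). With -log10 q of at least 5, 1 was SMC-only (1.63% of all promoters) and 3 were non-SMC-only (5.3%). The former was Dner, a neuronal ligand that lacks a DSL domain (percentiles 89.9 and 91.2 in SMC, 55.8 and 41.7 in non-SMC lines). The latter were Furin, the protease that cleaves Notch receptors on their way to the surface, Neurl1a, a ubiquitin ligase for ligands, and Spen, a corepressor of RBPJ. With 50 kb on either side, the 38 loci held 84 SMC-only and 117 non-SMC-only regions. The average protein-coding locus held 1.12 of the former and 1.99 of the latter, a balance further to the non-SMC side than that of the pathway genes. The nuclear complex (Rbpj, Maml1, Maml2, Maml3 and Spen) held 19 and 43, with more non-SMC-only regions at all 5 genes, though at Maml3 by 13 to 12. Rbpj, the DNA-binding partner of the receptors, had 2 and 10. The 6 targets held 10 SMC-only and 8 non-SMC-only regions, of which Heyl, a Hey-family repressor, had 6 and 0, and Hes1, a Hairy-type repressor, had 2 and 5.

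Markers of other cell types moved with the type of line. The promoters of Chga, of neuroendocrine cells, and Epcam, of epithelium, were SMC-only. Of the 6 markers of the attached cells, 4 (Cd44, Vim, Wwtr1 and Yap1) had non-SMC-only promoters with -log10 q of at least 5. So had 3 of the 4 fibroblast markers (Col1a1, Col1a2 and Pdgfrb), beside 5.3% of all promoters. Over all peaks no promoter of these 2 lists was non-SMC-only. The fibroblast loci held 26 non-SMC-only and 1 SMC-only regions, the 3 endothelial loci 10 and 3, and the 4 immune loci 8 and 4. The average protein-coding locus held 1.99 and 1.12. None of the 4 immune promoters reached -log10 q of 5 in any line. Whether cells of other types contributed to the non-SMC-only regions of the Notch family was not tested.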

How the data were processed

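ATAC-seq was performed on 2 SMC and 2 non-SMC lines, 1 library per line. The authors mapped paired-end reads to mm10 with Bowtie2 2.3.4, removed duplicates and called peaks for each library with MACS2 2.1.1. The settings of the peak calling are not given in the sources used here. Fold enrichment, as deposited, was read as the ratio of pileup to local background within a library, with 1 added to each. This addition lowers the ratio, most where the background is low. The authors also deposited a p-value and a q-value for each peak, each as its -log10. All peaks had p of at most 0.01.

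The pileup and the background of each peak were solved from its enrichment and p-value, which on 16738 simulated peaks gave the known values for 100%. The lowest background of a library was taken as its genome background, and the implied depth follows from it and the shortest peak. Peaks on unplaced sequence were left out, and lists were merged at 1 base of overlap. Starts and exons came from GENCODE M21, further starts and the GRCm38 sequence from RefSeq. Groups came from the sample titles. No test was made. The genes, gene lists and motifs were chosen with earlier results of these data known. The text names all 10 genes, per gene the highest promoter peaks and the highest SMC-only and non-SMC-only region not near another gene start, and pathway genes with one-sided promoters. Further regions and genes, among them Rbpj, Heyl and Hes1, were named after their values were seen. Alternatives were limits on q, equal list lengths, thinning to a common depth, each line left out, each line pair, other windows, overlaps and start sites. Python 3.11.15, numpy 2.4.6, scipy 1.17.1 and pandas 2.3.3 were used. Intervals were not given, since the lists hold no read totals. Expression data of the study were not analysed here.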

Additional observations from a re-analysis of the deposited data

How the results depend on the processing

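Equal list lengths (17 SMC-only and 35 non-SMC-only regions) and leaving out peaks near starts of other genes (18 and 33) kept the counts within 1.5 times of 19 and 37. With -log10 q of at least 5 there were 1 SMC-only and 21 non-SMC-only regions, the share of the peak list differed by -4.36 per 10000, promoter peaks in both lines were left at 0 genes for SMC and 2 for non-SMC, and 3 pathway promoters became non-SMC-only. Thinning to a common depth left 8 SMC-only regions and a median of 2.5 genes with a promoter peak in both SMC lines. The gene body alone gave 8 SMC-only and 12 non-SMC-only regions and a difference in share of 0.115 per 10000, and 10 kb on each side gave 12, 17 and 0.0964. With 100 kb there were 63 non-SMC-only regions, and with regions nearest to the start of the gene itself 23. A reciprocal overlap of 50% gave 12 SMC-only regions. Promoters of 2 kb or 1 kb left 4 genes with a peak in both SMC lines. RefSeq starts, an alternative chosen after seeing the data, gave 8 genes for SMC and 5 for non-SMC in place of 7 and 6.

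Requiring 1 line in place of both raised the counts by construction. With each line left out in turn, SMC-only regions ranged from 22 to 134, non-SMC-only regions from 40 to 100, the difference in share from 0.258 to 1.63 per 10000, and genes with a promoter peak from 7 to 9 for SMC and from 6 to 9 for non-SMC. The highest SMC-only count was without SMC 1 (134 against 40), and it was 83 against 46 without SMC 2. The labels number the lines of both types alike. Within the line pairs (replicate block), pair 1 had 88 SMC-only and 116 non-SMC-only regions and pair 2 had 148 and 102. The direction thus differed between pairs, with more regions in the deeper library of each, and the shares differed by 0.669 and 1.22 per 10000. By gene, the direction held in all 15 alternatives at Jag1, in 13 at Notch2 and Dll1, in 12 at Notch1, in 11 at Notch4 and Dlk1, in 8 at Jag2 and in 7 at Notch3 and Dll4, and the counts at Dll3 stayed equal in 3. These tallies include the settings with a line left out, whose counts shift by construction and cannot show which way the balance lies. Depth limits what an absent peak means, most in SMC 1.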
